A study of Mus musculus with 7 samples.

Results

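The hairpins mir-21 (named 21a in the scanner files), mir-221 and mir-222 gave 4 of the 252 mouse miRNAs in the deposited table: miR-21, miR-21*, miR-221 and miR-222. Members were chosen by hairpin name, with each arm or star form that had a row. The rule used no measured value, but the choice was made with earlier results of these data known. The table holds the miRNAs detected on all 7 arrays, and all 4 passed that filter. Among these 252 entries miR-21 was second brightest on every array, after miR-1937b, with 11.5% to 14.8% of the signal. miR-221 and miR-222 had less signal and a smaller share of it on each of the 3 arrays of Rb-depleted secondary cells than on each of the 4 arrays of primary cells. Before normalization 73.8% of all 252 miRNAs did not overlap between secondary and control arrays, and 48.8% between secondary and Rb-depleted primary arrays. In their share these were 60.7% and 56%. In the deposited values none of the 4 passed a test. Whether miR-21, miR-221 or miR-222 did so on the scanner's values depended on how arrays were scaled to each other.

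A miRNA is cut from a hairpin precursor, and the bases near its 5′ end, called the seed, pair with target mRNAs and lower their translation or stability. miR-21 is known for its high level in many tumours, for repression of the tumour suppressor Pdcd4, and for induction by Stat3, the factor activated by IL-6 signalling. The star form miR-21* is the opposite arm of the same hairpin and is usually degraded. miR-221 and miR-222 share a seed and are known to repress the cell cycle inhibitor p27 (Cdkn1b) and the receptor Kit.

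All cells came from soft tissue sarcomas of p53-knockout mice, so every group lacked p53, and all were selected with puromycin after transduction. Control primary cells (2 arrays) carried the control shRNA SHC002, and Rb-depleted primary cells (2 arrays) carried the Rb shRNA TRCN0000042543, both grown as monolayers. Rb-depleted secondary cells (3 arrays) carried the same Rb shRNA, had formed spheres in serum-free methylcellulose with B27, EGF and bFGF, and were then returned to a dish after spheres had been picked by hand and pooled. A single Rb shRNA was used, and Rb mRNA cannot be read on a miRNA array. None of the 7 arrays held control secondary cells. In secondary against control cells the shRNA and the passage through spheres thus cannot be told apart. The series describes independent experiments without naming cultures or animals, and p-values below measure only the spread between these arrays. The animals' age was not given in the sources used here.

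Each array gave a total gene signal per miRNA, the background-subtracted fluorescence summed over its probes, in intensity units. The signal summed over the 252 miRNAs was 550498 and 538586 on control arrays, 501515 and 432616 on the Rb-depleted primary arrays and 444678 to 471685 on the Rb-depleted secondary arrays. The 4 primary arrays and secondary replicate 1 lay on one slide, and secondary replicates 2 and 3 on another. Of 7 entries for the mesenchymal miRNAs miR-143, miR-145, miR-199a and miR-214, 6 were detected on all arrays and miR-145a-3p on none. Their summed share was 1.83% to 2.02% with control shRNA, 1.725% to 1.77% in Rb-depleted primary cells and 2.11% to 2.40% in the secondary cells. Of the epithelial miRNAs (the miR-200 family, miR-141, miR-429 and miR-205), 0 of 10 entries were detected on any array. In the blood list 6 of 7 entries were never detected, and the list took at most 0.00204% of the signal. The muscle list held 1 detected entry of 5 (miR-206), the neuronal list 1 of 3 (miR-9), and miR-126-3p, the endothelial entry, was detected on primary arrays alone at no more than 0.00195%. The neuronal list left out miR-9*, the other arm of miR-9, which was also in the table and so detected on all arrays. miR-9 took 0.0111% to 0.0227% and miR-206 0.00289% to 0.00873%, both lowest on a secondary array, and their part in the results was not tested.

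The mature sequences below show which members share a seed. They are RefSeq entries (GRCm38.p6), written 5′ to 3′ with the seed, bases 2 to 8, in capitals.
miR-21 (miR-21a-5p): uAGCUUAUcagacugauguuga
miR-21* (miR-21a-3p): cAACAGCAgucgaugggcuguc
miR-221 (miR-221-3p): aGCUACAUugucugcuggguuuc
miR-222 (miR-222-3p): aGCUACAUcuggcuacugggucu
miR-221 and miR-222 were identical over their first 8 bases and at 11 of 23 positions when aligned from the 5′ end. The miR-21 and miR-21* seeds differed from each other and from this shared seed. RefSeq also lists a pair of near copies of miR-21, shown because a probe against the 3′ part of miR-21 may or may not tell them apart, which was not tested.
miR-21b: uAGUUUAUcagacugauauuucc
miR-21c: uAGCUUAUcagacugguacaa
miR-21c matched miR-21 over its first 15 bases and carried the same seed, and miR-21b matched it at 18 of 22 positions with another seed. The array held no entry named miR-221-5p or miR-222-5p, and miR-21b and miR-21c themselves were not analysed here.

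In the NCBIM37 annotation (mm9, the build of the array design), the mir-21 hairpin lay at chr11:86397569-86397660 on the minus strand, inside a UTR exon of Vmp1, which encodes a membrane protein of autophagy and is transcribed on the same strand (chr11:86397367-86497338). The mir-221 hairpin lay at chrX:18723420-18723514 and the mir-222 hairpin at chrX:18724019-18724097, both on the minus strand and 504 bases apart. No other annotated gene overlapped them, and the nearest protein-coding gene, BC049702, lay 332449 bases from mir-222 and 333032 from mir-221. The close spacing is the reason their ratio was followed within each array.

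The total gene signal of miR-21 was 63169 and 68672 on control arrays, 63758 and 55322 on the Rb-depleted primary arrays, and 69912, 63340 and 56801 on the Rb-depleted secondary arrays. The groups overlapped, with the highest and the second lowest values both on secondary arrays. miR-1937b was brighter on every array (134881 to 161059) and miR-720 was next below miR-21, which thus kept rank 2 of 252 on all 7. Whether the entries miR-1937b and miR-720 are miRNAs was not examined here, so the rank holds among the entries of the table. The brightest miR-21 spot read 66739, far under the scanner's saturation values of 778377 and 778690, and 0 of its 20 spots per array were saturated. Both miR-21 probes gave small differences, with secondary minus control means of -0.05 and -0.07 on the log2 scale of summed probe signal.

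miR-21* gave 112.4 and 132.2 on control arrays, 122.7 and 108.6 on the Rb-depleted primary arrays, and 123.4, 109.4 and 86.2 on the Rb-depleted secondary arrays. The groups overlapped here too, and the lowest value was on secondary replicate 3. Its best rank was 121 of 252, and the spots of its 4 probes varied by a median of 14.2% (CV) within an array, against 6.51% for miR-21.

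**Figure D1:**
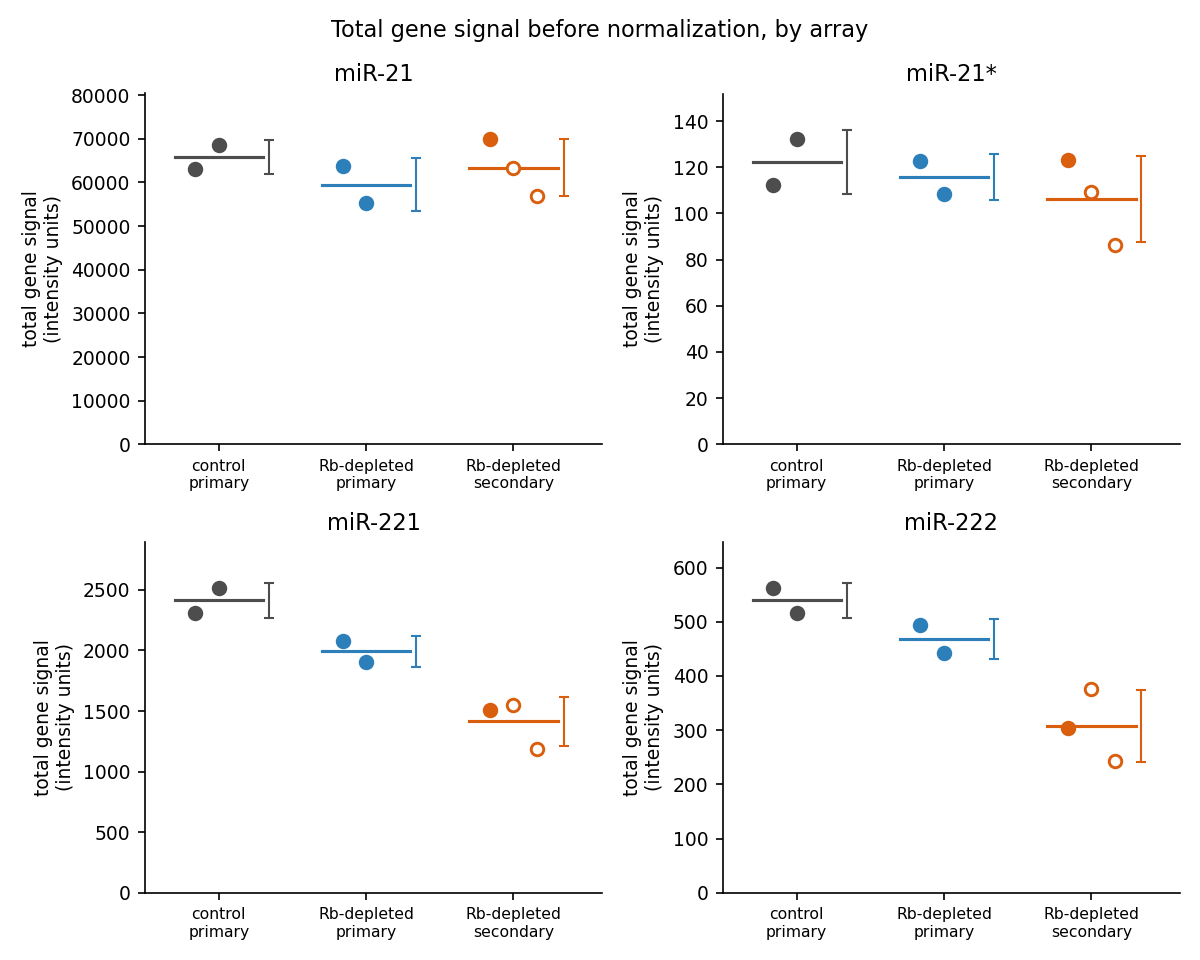
Total gene signal in intensity units before normalization (vertical axes from 0) for miR-21, miR-21*, miR-221 and miR-222 in the 3 groups. Each point is an array, filled on the first slide and open on the second, with a line at the group mean and bars of ± 1 SD (n = 2, 2 and 3). miR-221 and miR-222 lie lower on all 3 secondary arrays than on all 4 primary arrays, and miR-21 and miR-21* overlap. Of all 252 miRNAs, 73.8% do not overlap between secondary and control arrays and 48.8% between secondary and Rb-depleted primary arrays.

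miR-221 gave 2312 and 2518 on control arrays, 2081 and 1904 on the Rb-depleted primary arrays, and 1509, 1553 and 1184 on the Rb-depleted secondary arrays. The 3 groups did not overlap, and secondary cells were lowest. miR-222 gave 563 and 516 on control arrays, 494.2 and 442.4 on the Rb-depleted primary arrays, and 303, 375 and 244 on the Rb-depleted secondary arrays. It showed the same order of groups without overlap. Before normalization 64.3% of all 252 miRNAs did not overlap between Rb-depleted primary and control arrays, 73.8% between secondary and control arrays and 48.8% between secondary and Rb-depleted primary arrays. In secondary against control cells, the 2 probes of miR-221 differed by -0.84 and -0.74 and those of miR-222 by -0.86 and -0.82 in log2 probe signal, so each probe alone gave the difference. These are values before normalization, and without normalization the median log2 difference over all 252 miRNAs was -0.26 in Rb-depleted primary and -0.46 in Rb-depleted secondary cells against control cells.

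The share of the array total, each member's percentage of the signal summed over the 252 miRNAs, removes a factor common to an array. It also moves with the brightest entries, miR-1937b above all, which make up much of that total. miR-21 took 11.5% and 12.8% on control arrays, 12.7% and 12.8% on the Rb-depleted primary arrays, and 14.8%, 14.2% and 12.8% on the Rb-depleted secondary arrays. The means were 12.1% ± 0.902 (SD, n = 2), 12.8% ± 0.0528 (n = 2) and 13.9% ± 1.05 (n = 3). The lowest secondary array (12.77%) lay just above the highest control array (12.75%) and below the higher Rb-depleted primary array (12.79%). The difference of 0.20 in log2 share between secondary and control cells gave an exact permutation p of 0.2 (two-sided). For 2 arrays against 3 the smallest p this test can give is 0.1, and for 2 against 2 it is 0.333, so no exact test here can pass 0.05. The 24 exact tests in this family, on shares and on ratios within arrays, all had an adjusted p of 0.4 or more. miR-21* took 0.0194% to 0.0262%, and its groups overlapped in all 3 comparisons.

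miR-221 took 0.420% and 0.467% on control arrays, 0.415% and 0.440% on the Rb-depleted primary arrays, and 0.320%, 0.349% and 0.266% on the Rb-depleted secondary arrays. All 3 secondary arrays lay under all 4 primary arrays, and the 2 kinds of primary cells overlapped. The fold of the mean log2 share was 0.699 in secondary against control cells (exact permutation p = 0.1, the smallest possible, adjusted p = 0.4) and 0.965 in Rb-depleted primary against control cells (exact p = 0.667). miR-222 took 0.102% and 0.0958% on control arrays, 0.0985% and 0.102% on the Rb-depleted primary arrays, and 0.0643%, 0.0843% and 0.0548% on the Rb-depleted secondary arrays. Again the secondary arrays were lowest and the primary groups overlapped. The fold against control cells was 0.674 (exact p = 0.2, adjusted p = 0.436), with secondary replicate 2 nearest to the primary arrays. Over all 252 miRNAs the median difference in log2 share between secondary and control cells was -0.20, so both folds include a general fall in shares. Of all 252 miRNAs, 60.7% did not overlap between secondary and control arrays in their share, and miR-21, miR-221 and miR-222 were 3 of these. Between secondary and Rb-depleted primary arrays 56% did not overlap.

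On the slide that held arrays of all 3 groups, secondary replicate 1 alone gave shares of 0.320% for miR-221 and 0.0643% for miR-222, under the lowest primary shares of 0.415% and 0.0958%. The slide held 1 secondary array, so there is no spread within it, and for the second slide, which held only secondary arrays, no comparison can be made.

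**Figure D2:**
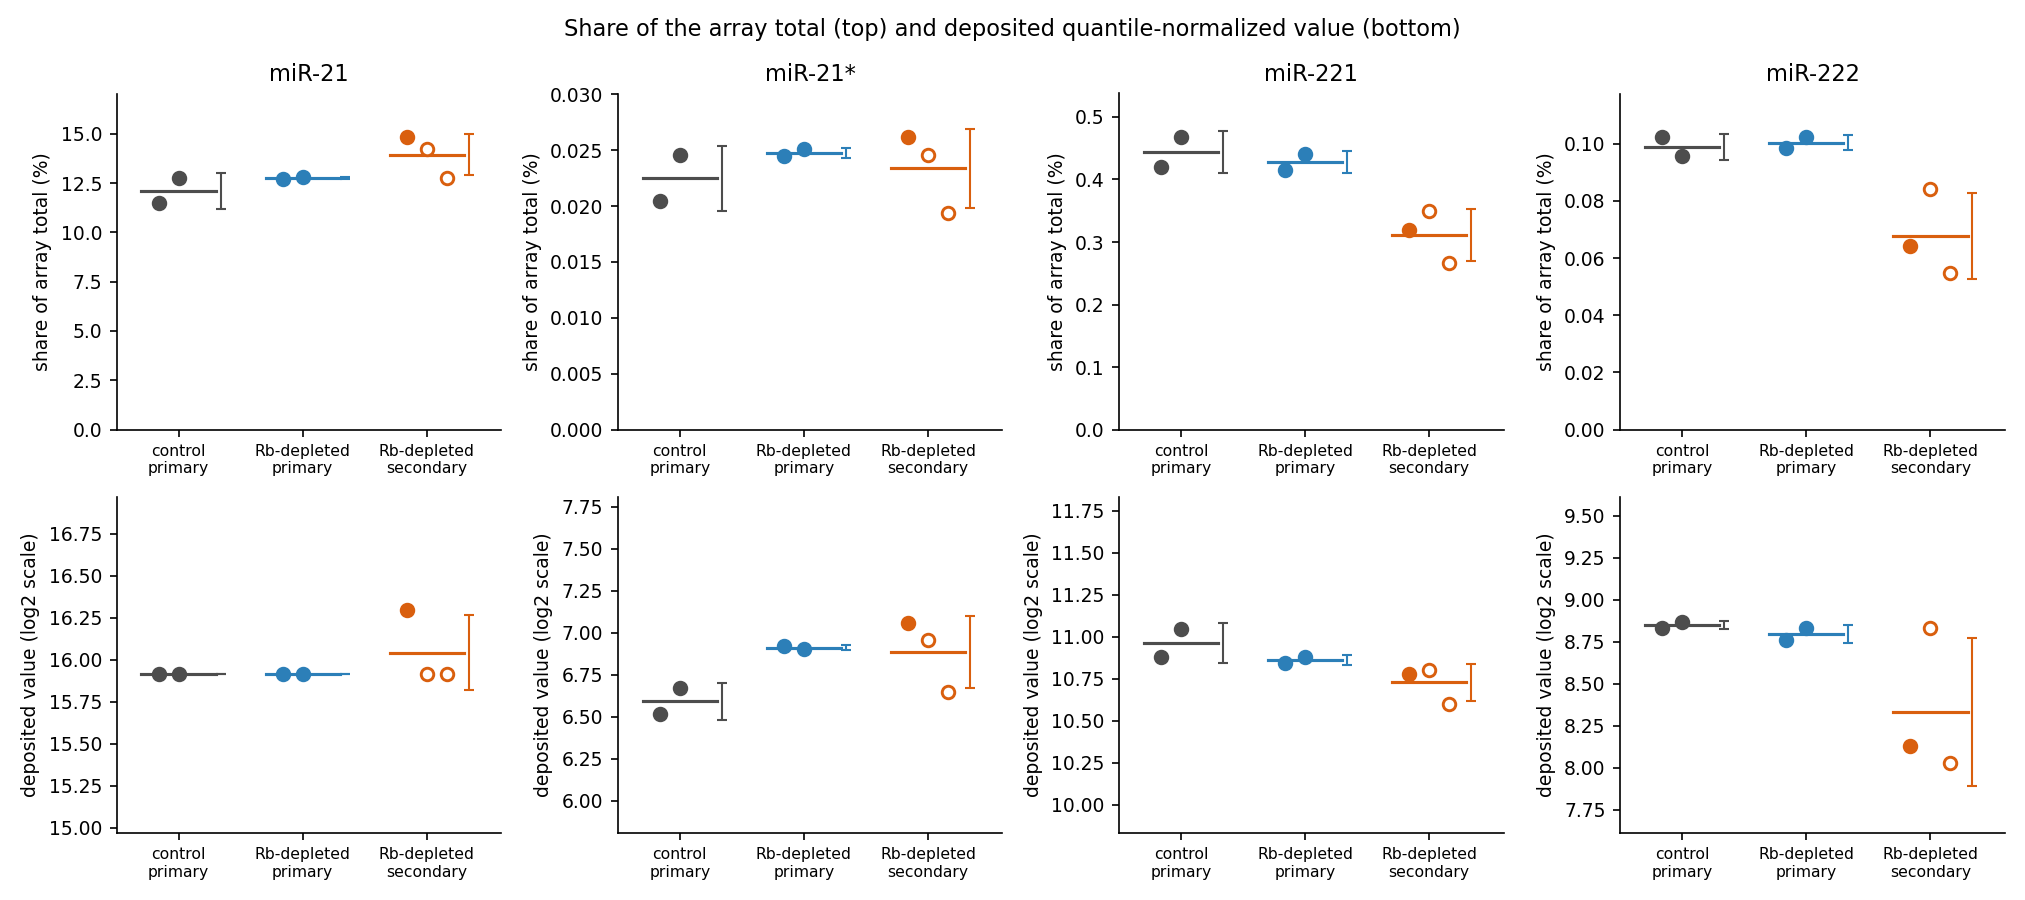
Top, share of the array total in percent (axis from 0). Bottom, deposited quantile-normalized value on the log2 scale, each panel spanning 2 log2 units. Points are arrays (open on the second slide), lines are group means and bars are ± 1 SD (n = 2, 2 and 3). miR-21 has the same deposited value of 15.92 on 6 arrays, and miR-222 on secondary replicate 2 shares its deposited value of 8.84 with a control and an Rb-depleted primary array.

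The deposited values are log2 numbers after quantile normalization, which replaces each signal by the mean signal of its rank over all arrays. miR-21 had a deposited value of 15.92 on 6 arrays and 16.30 on secondary replicate 1. That array was the one on which miR-21 outranked the control feature hur_1. The signal of hur_1 was 0.898 times that of miR-21 there and 1.05 to 1.55 times on the other 6. hur_1 read 83629 to 98843 on primary arrays and 62801 to 66713 on secondary arrays, while miR-21 did not separate these arrays. With the rank of miR-21 among all features going from 5 to 4, its deposited value stepped by 0.38, while different signals on the other 6 arrays had become 1 value. When the 252 miRNAs were normalized alone, without hur_1, the fold change of miR-21 was 0 in all 3 comparisons.

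**Figure D3:**
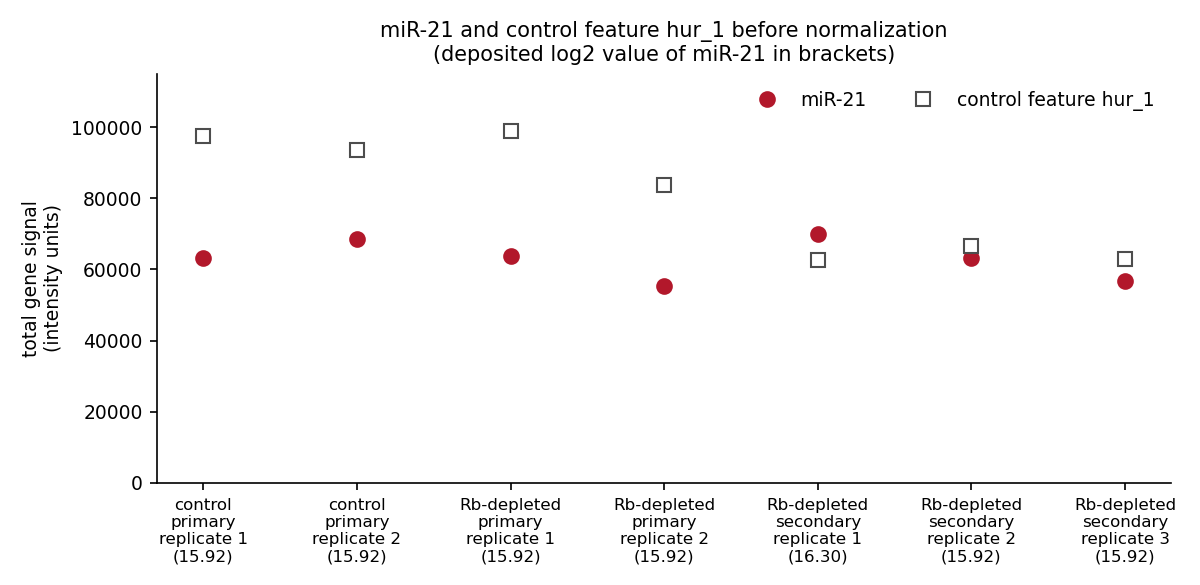
Total gene signal in intensity units (axis from 0) of miR-21 (red circles) and the control feature hur_1 (open squares) on each of the 7 arrays, with the deposited log2 value of miR-21 in brackets. hur_1 is above miR-21 except on secondary replicate 1, the array with the deposited value of 16.30.

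The 3 groups were compared in one limma fit over all 252 miRNAs with Benjamini-Hochberg adjustment. Of the 4 members, 0 passed the F-test over the 3 groups at an adjusted p of 0.1, which 43.3% of all 252 miRNAs passed. The adjusted F-test p was 0.624 for miR-21, 0.226 for miR-21*, 0.222 for miR-221 and 0.226 for miR-222. miR-21 had the same deposited value on every array but secondary replicate 1, so its tests on these values cannot show whether its signal changed. For Rb-depleted primary against control cells 0 of 4 passed at an adjusted p of 0.05, against 1.59% of all miRNAs. For secondary against control cells 0 of 4 passed against 22.6%, and for secondary against Rb-depleted primary cells 0 of 4 passed against 20.2%. In none of these comparisons did a member have an unadjusted p under 0.05, and the fit without moderation also called 0.

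In Rb-depleted primary against control cells, miR-21* differed most, by 0.32 in deposited log2 value (SE 0.15, limma adjusted p = 0.265). Its values were 6.51 and 6.67 in control cells and 6.92 and 6.90 in Rb-depleted primary cells, without overlap, as held for 57.5% of all miRNAs in that comparison. The difference was -0.08 before normalization and 0.15 in log2 share. miR-221 differed by -0.10 (SE 0.11, adjusted p = 0.574), and miR-222 by -0.05 (SE 0.27, adjusted p = 0.939), turning to 0.02 as a share of the total.

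In secondary against control cells, miR-221 had deposited values of 10.88 and 11.05 in control cells and 10.78, 10.80 and 10.60 in secondary cells. The groups did not overlap, as held for 52% of all miRNAs in that comparison. The log2 fold change was -0.23 (95% interval -0.48 to 0.01, limma adjusted p = 0.148), and -0.15 without control replicate 2 (adjusted p = 0.444). miR-222 had 8.84 and 8.87 in control cells and 8.13, 8.84 and 8.03 in secondary cells, so secondary replicate 2 lay level with the lower control array. Its log2 fold change was -0.52 (95% interval -1.14 to 0.10, adjusted p = 0.185). Without secondary replicate 2 it was -0.77 with a limma adjusted p of 0.00927, in a fit that called 29.4% of all miRNAs, so a single array decided this call. miR-21 differed by 0.13 (SE 0.14, adjusted p = 0.538) and miR-21* by 0.30 (SE 0.14, adjusted p = 0.183).

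In secondary against Rb-depleted primary cells, which both carried the Rb shRNA, the log2 fold change was -0.13 for miR-221 (SE 0.10, limma adjusted p = 0.363) and -0.47 for miR-222 (SE 0.25, adjusted p = 0.236). Without secondary replicate 3 the value for miR-221 was -0.069 (adjusted p = 0.657). The Rb-depleted primary arrays read 10.84 and 10.88 for miR-221, above all 3 secondary arrays, and 51.2% of all miRNAs did not overlap in this comparison. For miR-222 they read 8.76 and 8.84 and overlapped with secondary replicate 2. Without that array, miR-222 differed by -0.72 (adjusted p = 0.0125, in a fit that called 26.2% of all miRNAs). miR-21 differed by 0.13 (adjusted p = 0.526) and miR-21* by -0.02 (adjusted p = 0.936).

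Scaling to the array total in place of quantile normalization gave -0.52 for miR-221 (SE 0.14, limma adjusted p = 0.0416) and -0.57 for miR-222 (SE 0.18, adjusted p = 0.0590) in secondary against control cells. So 1 of 4 members passed, and the fit called 28.2% of all miRNAs, 22.6% of all in the lower direction. The F-test called 2 of 4 members, miR-221 and miR-222, and 46.8% of all. Without normalization both passed, at -0.78 (adjusted p = 0.00887) and -0.83 (adjusted p = 0.0133), in a fit that called 45.2%. Scaled to the 75th percentile neither passed (adjusted p = 0.155 and 0.143). Relative to the median of all miRNAs, which was -0.20 under total scaling and -0.46 without normalization, the differences were -0.32 for miR-221, -0.37 for miR-222 and 0.40 for miR-21. These are the same in each of the 3 scalings by construction, because each moves all miRNAs of an array by 1 amount. miR-21 passed in none of the 3. With the brightest 5 miRNAs, of which it is one, left out of the total it passed, at 0.47 (SE 0.11, adjusted p = 0.0232, in a fit that called 31.3% of all miRNAs), and miR-221 and miR-222 did not.

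With slide as a term, the secondary cells are represented by secondary replicate 1 alone, which is assumed to vary like the other arrays, so the fit adds no spread of its own for it. The total-scaled differences against control cells were then -0.47 for miR-221 (adjusted p = 0.206) and -0.62 for miR-222 (adjusted p = 0.198), and neither passed. They are the values of that 1 array minus the control mean.

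**Figure D4:**
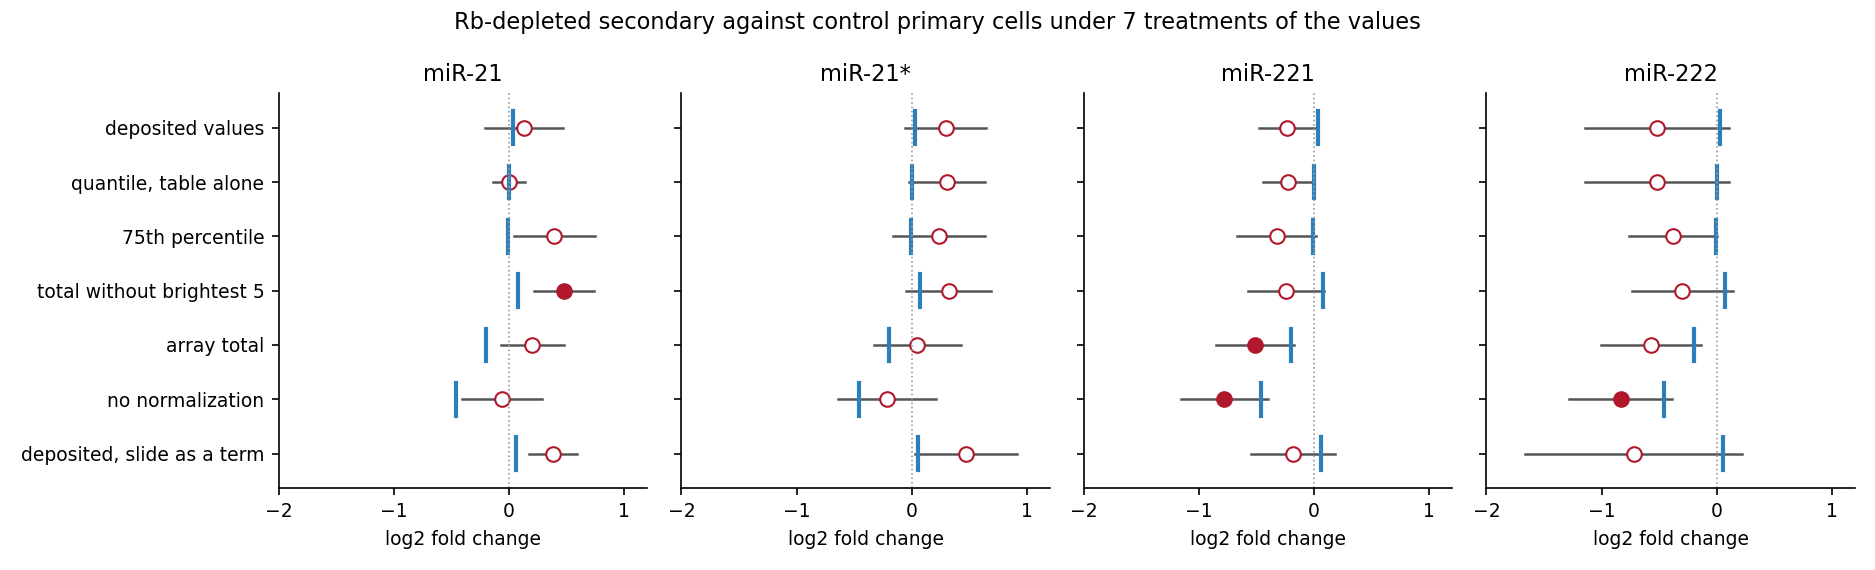
Log2 fold change of each member in Rb-depleted secondary against control primary cells (points, filled where the adjusted p is under 0.05) with 95% intervals (lines), under 7 treatments of the values in the limma fit. The blue bar marks the median of all miRNAs under the same treatment. miR-221 and miR-222 lie left of 0 and of the median under each treatment, and miR-21 lies left of 0 without normalization but right of the median there.

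Ratios within an array do not depend on a factor common to that array. The signal ratio of miR-21 to miR-221 was 27.3 and 27.3 on control arrays, 30.6 and 29.1 on the Rb-depleted primary arrays, and 46.3, 40.8 and 48.0 on the Rb-depleted secondary arrays. The secondary arrays were all above the primary arrays, by 1.65-fold in the mean log2 ratio against control cells and 1.51-fold against Rb-depleted primary cells. Both gave an exact permutation p of 0.1, the smallest possible (adjusted p = 0.4), and the log2 difference of 0.72 against control cells stood beside a pooled SD of 0.10. Leaving out any array kept it between 0.67 and 0.79. The ratio of miR-21 to miR-222 was 112.3 and 133.1, 129.0 and 125.04, and 230.7, 168.8 and 233.0 in the same order of groups. It was 1.71-fold higher in secondary than in control cells (exact p = 0.1, adjusted p = 0.4), again without overlap. Both ratios were added after values had been seen. How many other pairs of miRNAs had ratios without overlap between these groups was not counted. With deposited values in place of signal, the difference for miR-21 over miR-221 was 0.36.

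The ratio of miR-221 to its neighbour miR-222 was 4.11 and 4.88 on control arrays, 4.21 and 4.30 on the Rb-depleted primary arrays, and 4.98, 4.14 and 4.85 on the Rb-depleted secondary arrays. The groups overlapped, and the differences in log2 ratio were -0.07, 0.05 and 0.12 against pooled SDs of 0.12 to 0.16 (exact p = 1, 0.6 and 0.4). The ratio of miR-21 to miR-21* was 562 and 520 on control arrays, 520 and 510 on the Rb-depleted primary arrays, and 567, 579 and 659 on the Rb-depleted secondary arrays. Probes differ in efficiency, so this is a ratio of signals and not of molecules. The secondary arrays lay above the Rb-depleted primary arrays, by 1.17-fold (exact p = 0.1, adjusted p = 0.4), and above the control arrays by 1.11-fold (exact p = 0.2). How many other pairs of miRNAs separated in this way was not counted. In deposited values miR-21 differed by less than miR-21* from control cells (0.13 and 0.30), so the difference in that comparison turned sign.

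**Figure D5:**
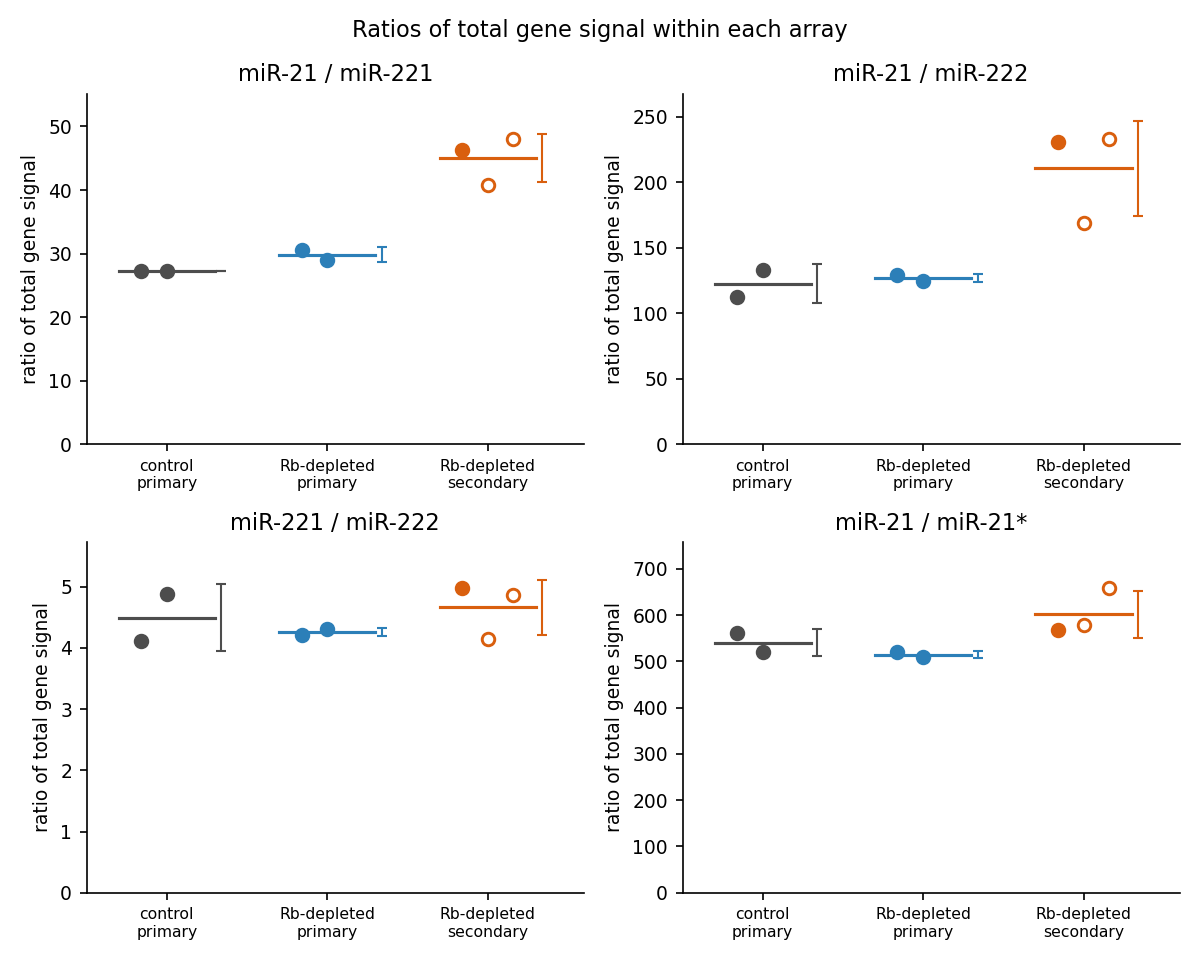
Ratios of total gene signal within each array (axes from 0) for 4 pairs of members. Points are arrays (open on the second slide), lines are group means and bars are ± 1 SD (n = 2, 2 and 3). The ratios of miR-21 to miR-221 and to miR-222 are higher on all 3 secondary arrays (40.8 to 48.0 and 168.8 to 233.0) than on the primary arrays, and the ratio of miR-221 to miR-222 overlaps between groups. How many other pairs of miRNAs separate in this way was not counted.

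A list of related miRNAs held 11 others tied to IL-6, NF-kappaB or Stat3 signalling, of which 8 were in the table. In Rb-depleted primary against control cells 0 of the 8 passed, against 1.59% of all 252 miRNAs. In secondary against control cells 2 of 8 passed, both higher, against 22.6% of all. These were miR-29b, by 0.52 (SE 0.07, limma adjusted p = 0.0106), and miR-155, a miRNA induced by NF-kappaB in immune cells, by 0.99 (SE 0.24, adjusted p = 0.0398). In secondary against Rb-depleted primary cells 1 of 8 passed against 20.2% of all, miR-29b, higher by 0.30 (SE 0.07, adjusted p = 0.0411). The 2 differences of miR-29b did not change when a secondary or an Rb-depleted primary array was left out. Its deposited values were thus equal within each of these groups, as for miR-21, and its small SE does not measure the spread of its signal. Under total scaling the SE against control cells was 0.12. The shares of the list are thus near the background or below it. The call of miR-155 was lost when any array other than secondary replicate 2 was left out (limma adjusted p from 0.0640 to 0.191), as was that of miR-29b against Rb-depleted primary cells (0.0527 to 0.154). Against control cells, miR-29b lost its call without control replicate 1 (adjusted p = 0.0778). The medians of the 8 were 0.21, 0.29 and 0.08 in the 3 comparisons, beside 0.008, 0.03 and 0.02 over all 252. Under total scaling they were 0.16, 0.036 and -0.13, beside -0.034, -0.20 and -0.14 over all, so the third turned sign. There 1 of 8 passed in secondary against control cells, against 28.2% of all, namely miR-155 (0.83, adjusted p = 0.0429), and miR-29b was at 0.05 (adjusted p = 0.792).

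The miRNAs most like each member were taken from Pearson's r of deposited values over the 7 arrays, as a description; the arrays share normalization and groups. miR-221 was nearest to miR-365 (0.959), miR-10b (0.888) and miR-31* (0.863), and miR-222 to miR-206 (0.963), miR-30c (0.957) and miR-1949 (0.957). miR-222 was the 14th of 250 for miR-221, at 0.784. On the log2 share of the array total, r between miR-221 and miR-222 was 0.949, 4th of 251 for miR-221 after miR-365, miR-31 and miR-1949. miR-21 was nearest to miR-532-3p (0.976), miR-98 (0.859) and miR-22* (0.843) in deposited values, an order that rests on the 1 array where its value stepped, and to miR-30e (0.853), let-7a* (0.824) and let-7g (0.776) as a share. miR-21* was nearest to miR-106b* (0.832), miR-25 (0.772) and miR-15b* (0.756), and its r with miR-21 was 0.555.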

How the data were processed

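MiRNAs were measured on 7 one-colour Agilent mouse miRNA arrays (8 × 15K release 15.0), grouped by the labels. From the authors there is 1 deposited table, with log2 values after quantile normalization in GeneSpring for 252 mouse miRNAs and 11 control rows, and the deposited scanner output of each array with the intensity of every spot and the total gene signal. The submitters' processing notes name Agilent Feature Extraction 10.7.3.1 and the file headers version 11.0.1.1. The table was rebuilt from the log2 total gene signal of 718 features to within 3.2e-06, which paired its names with the scanner's names (251 of 252 share the number). Control rows were left out, and 0 columns of values had no sample. Precision is limited by the number of arrays.

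The log2 values were analysed with limma 3.58.1 (R 4.3.3) with empirical Bayes moderation, 1 mean per group and Benjamini-Hochberg adjustment over the table, at 0.1 for the F-test and 0.05 for contrasts. Exact permutation tests (two-sided, on the difference of means) and figures used Python 3.11.15, numpy 2.4.6, pandas 2.3.3 and matplotlib 3.10.9. The fit was tested on simulated data. Replicates with the same number did not deviate together (correlations of deviations from -0.14 to 0.13), so the numbers were not treated as pairs. Alternatives were other scalings, the table's miRNAs or all detected ones (floor of 1), other moderation, slide or replicate number as a term, other thresholds, single probes and each array left out. Total scaling with slide, with arrays left out or without the brightest 5, both ratios to miR-21, and arrays left out for miR-29b and miR-155, were added after values were seen. Members, the list and markers were chosen with earlier results of these data known. Named miRNAs are the members, the 3 nearest to each by Pearson's r, and those of the list of IL-6, NF-kappaB or Stat3 miRNAs that passed; others were chosen after their values were seen. RNA-seq and RT-qPCR of the study were not used here, and a further list of miRNAs is not reported here.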

Additional observations from a re-analysis of the deposited data

How the results depend on the processing

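Calls of members rested on scaling and on single arrays. Secondary against control cells gave 2 members past the test without normalization (miR-221 and miR-222, both lower) and 1 scaled to the array total (miR-221, lower). With the brightest 5 left out of that total the comparison gave 1 (miR-21, higher), and on deposited values 0. In the same order these fits called 45.2%, 28.2%, 31.3% and 22.6% of all 252 miRNAs. The F-test gave 2, 2, 1 and 0 in the same order, and it passed 46.8% of all with total scaling and 43.3% on deposited values. Its shares in the other fits are not given here. Single arrays left out gave 0 to 2 for the F-test and for both secondary comparisons, and 0 for Rb-depleted primary against control cells. On deposited values the calls came without secondary replicate 2 (miR-222) or replicate 3 (miR-21* in the F-test, adjusted p 0.0979). Without replicate 2, the fits called 29.4% of all against control cells and 26.2% against Rb-depleted primary cells. With total scaling, no member kept an adjusted p under 0.05 when control replicate 1 or 2, Rb-depleted primary replicate 1 or 2 or secondary replicate 1 or 3 was left out, and both miR-221 and miR-222 had one without secondary replicate 2. The shares of all miRNAs called in these total-scaled fits are not given here, so the calls of members cannot be set against them. The replicate block called 0 members and changed no call.

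The log2 fold changes of miR-221 and miR-222 in both secondary comparisons were negative in all 26 fits. Signs turned as follows, none with an adjusted p under 0.05 and the cause was not tested. Against control cells without normalization, miR-21* was -0.079 in Rb-depleted primary and -0.21 in secondary cells and miR-21 -0.061 in secondary cells. In Rb-depleted primary against control cells, miR-221 was 0.045 without the brightest 5, and miR-222 0.021 (total, with or without slide), 0.031 (75th percentile) and 0.12 (without the brightest 5). In secondary against Rb-depleted primary cells, miR-21* was 0.083 (75th percentile), 0.079 (without the brightest 5), 0.078 (total with slide), 0.096 (replicate block) and 0.15 (slide). With single arrays left out, miR-21* ranged from -0.18 to 0.096 there and from -0.082 to 0.42 in secondary against control cells, and in Rb-depleted primary against control cells miR-221 ranged from -0.18 to 0.025 and miR-222 from -0.091 to 0.067.

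With deposited log2 values, secondary against control and against Rb-depleted primary cells differed by 0.28 and 0.33 in miR-221 minus miR-222 and by 0.36 and 0.26 in miR-21 minus miR-221. miR-21 minus miR-21* was -0.32 in Rb-depleted primary and -0.17 in secondary against control cells. With miR-21* probes 1, 2 and 3 alone it was -0.0077, -0.0022 and -0.0062 in Rb-depleted primary against control cells, with probes 1 and 2 it was 0.27 and 0.33 in secondary against control cells, and with probe 2 it was 0.33 in secondary against Rb-depleted primary cells. Shares without the brightest 5 gave, in the order Rb-depleted primary against control, secondary against control and secondary against Rb-depleted primary, 0.17, 0.47 and 0.30 for miR-21 and 0.045, -0.24 and -0.29 for miR-221. They gave 0.12 and -0.30 for miR-222 in the first and second, and 0.32 for miR-21* in the second.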
